A study of Mus musculus with 12 samples.

Results

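The 12 microarrays are of C3H10T1/2 cells, a mouse embryonic mesenchymal line. The 6 arrays labelled as transfected with small interfering RNAs (siRNAs) fell into 2 sets of 3 that did not follow the siRNA label. The sets were defined by the measured signal of one probe set for Vnn1, the dimmer of its 2, and not by the labels. The Vnn1-high arrays read 8.03 (siRNA-140, replicate 1), 8.34 (siRNA-140, replicate 2) and 8.22 (siRNA-96, replicate 1) on the log2 scale. The Vnn1-low arrays read 2.84 (siRNA-140, replicate 3), 2.84 (siRNA-96, replicate 2) and 3.04 (siRNA-96, replicate 3). The threshold between the sets was 5.5, and no siRNA array lay near it. Each set therefore held arrays labelled with both siRNAs. By label, siRNA-140 replicate 3 and siRNA-96 replicate 1 each lay apart from the rest of their group. Whether the labels match the RNA that each array received was not tested. Because the sets were chosen by the profile itself, the comparison between them is a description of these 6 arrays, with no p-value.

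The study had 4 groups of 3 arrays. In its over-expression experiment cells received siRNA-140, a mimic of the microRNA miR-140, or siRNA-96 as the control. In its suppression experiment they received a locked nucleic acid (LNA) inhibitor of endogenous miR-140 (anti-miR-140) or one of miR-449 (anti-miR-449) as the control. The question of the over-expression experiment was which transcripts change when miR-140 is supplied. All groups are the same cell line, with no other allele or agent given. The labels do not say whether the arrays of a group came from separate cultures, so any spread or p-value covers only these arrays and may be technical.

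As background, cells that sense double-stranded RNA or DNA in the cytoplasm secrete type I interferon. Interferon receptors signal through the kinases Jak1 and Tyk2 to transcription factors, among them Stat2 and Irf9, that bind the interferon-stimulated response element in the promoters of antiviral genes. Vnn1 (vanin 1) is a membrane-anchored pantetheinase that splits pantetheine, a breakdown product of coenzyme A, into pantothenate and cysteamine. Postn (periostin) is a matricellular protein secreted by stromal cells under TGF-beta signalling.

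Values are log2 signals, 1 probe set a gene (the one with the highest mean over the 12 arrays), for 18193 named genes. A difference is the mean of the 3 Vnn1-high arrays minus the mean of the 3 Vnn1-low arrays, and its spread is given by the smallest and largest of the 9 differences between single arrays of the 2 sets. A gene is called separated where all 3 arrays of one set lay above all 3 of the other and the means differed by at least 1, which is 2-fold. By this definition 101 genes (0.555%) were higher in the Vnn1-high arrays, 189 (1.04%) were lower and 290 (1.59%) were separated in either direction. Of these, 8 higher and 31 lower genes differed by at least 4-fold. Ignoring size, 3017 genes (16.6%) lay higher without overlap and 2245 (12.3%) lower, together 28.9% of all genes. Most of the transcriptome was close between the sets: the median difference over all genes was 0.03, and 75.2% of genes differed by less than 0.25. The median gene spanned 0.27 among the Vnn1-high arrays and 0.19 among the Vnn1-low arrays.

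**Figure D1:**
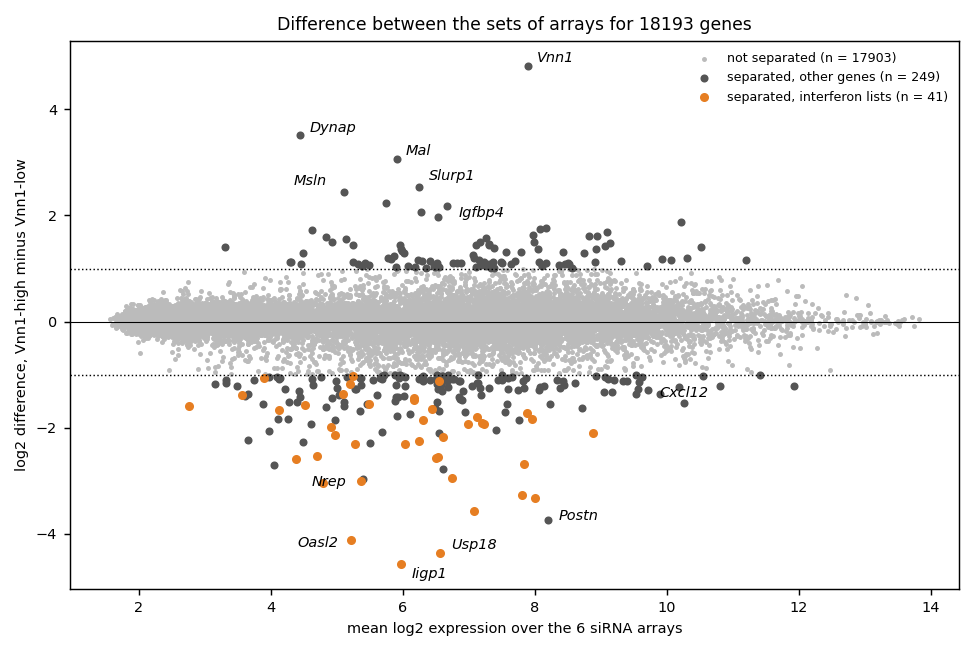
Difference between the sets of arrays (log2, Vnn1-high minus Vnn1-low, vertical axis) against the mean log2 expression over the 6 siRNA arrays (horizontal axis), 1 point a gene for 18193 genes. Dotted lines mark a difference of 1 in either direction, orange points are the 41 separated genes of the interferon lists and dark points the other separated genes. All 41 orange points lie below 0, and Vnn1 stands highest.

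The genes with the greatest excess in the Vnn1-high arrays were led by Vnn1 itself. For each gene, values are given for the Vnn1-high arrays and then for the Vnn1-low arrays, each in the order used above. At its brighter probe set Vnn1 was 10.37, 10.51 and 10.04 against 5.52, 5.66 and 5.27, a difference of 4.82 (4.38 to 5.24). Dynap, a dynactin-associated membrane protein, was 6.15, 6.36 and 6.11 against 2.99, 2.49 and 2.61, a difference of 3.51 (3.12 to 3.87). As the definition of separated requires, neither gene overlapped between the sets, and the siRNA-96 array of the Vnn1-high set lay with the siRNA-140 arrays. Mal, a proteolipid of membrane rafts that carries proteins to the apical surface, was 7.43, 7.53 and 7.37 against 4.30, 4.52 and 4.32 (difference 3.06). Slurp1, a small secreted Ly6-type protein of keratinocytes, was 7.34, 7.77 and 7.46 against 5.01, 5.0 and 4.95 (difference 2.54). Msln (mesothelin), a membrane-anchored glycoprotein of mesothelial cells, was 6.28, 6.48 and 6.23 against 3.95, 4.0 and 3.71 (difference 2.44). In all of these the distance between the sets was several times the span within either set. Among the next genes in size were the insulin-like growth factor binding protein Igfbp4 (difference 2.17), the integrin subunit Itgb4 (2.06) and the sphingomyelin synthase Sgms2 (1.97). After them came the aldehyde dehydrogenase Aldh3a1 (1.87), the zinc importer Slc39a1 (1.76) and the CMP-sialic acid transporter Slc35a1 (1.74). Aldh3a1 was abundant in both sets, at means of 11.15 and 9.28. Vnn3, the paralogue of Vnn1, did not follow it: its 6 arrays lay between 4.09 and 4.35 and overlapped between the sets.

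**Figure D2:**
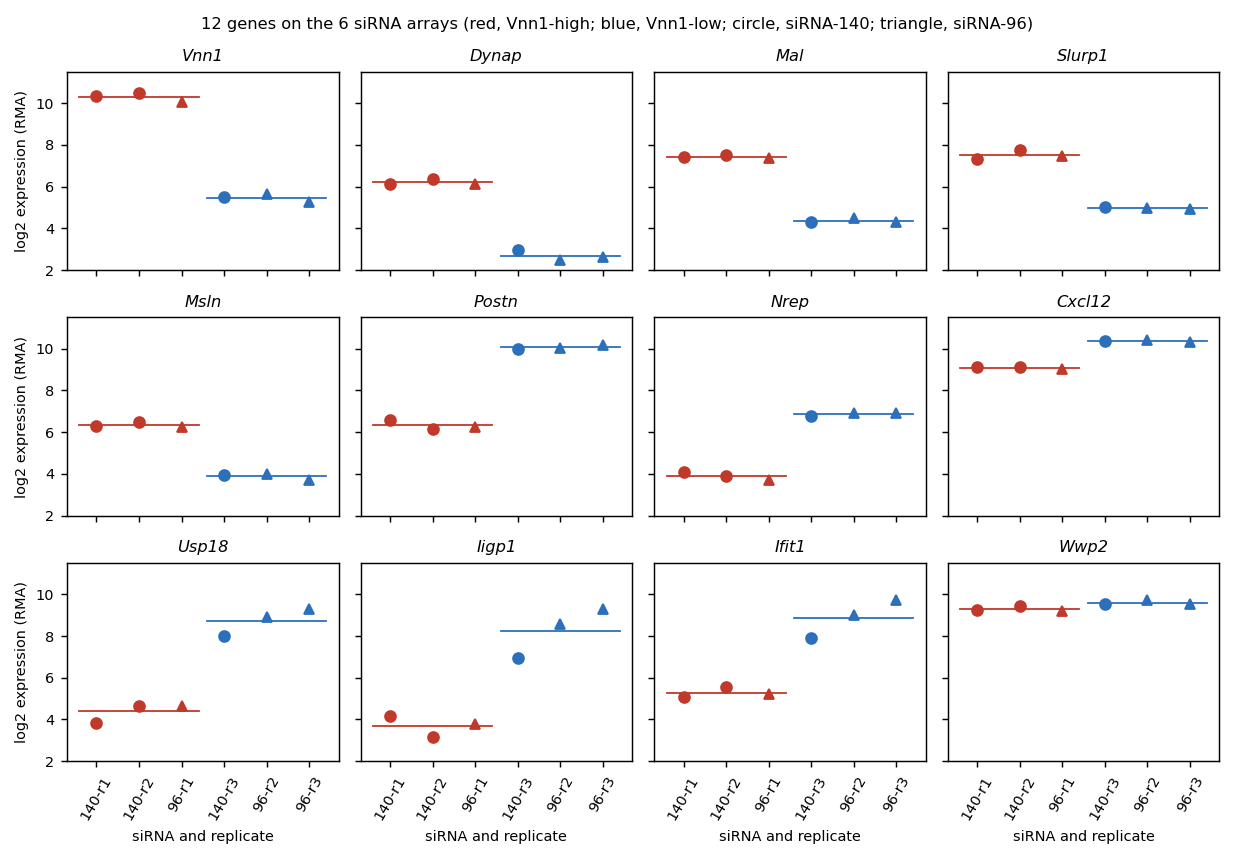
Log2 expression (vertical axis) of 12 genes in each of the 6 siRNA arrays (horizontal axis: siRNA and replicate). Red marks are Vnn1-high arrays, blue marks Vnn1-low arrays, circles siRNA-140, triangles siRNA-96, and horizontal lines the mean of each set. Periostin (Postn) sits at 6.17 to 6.61 against 10.01 to 10.16 with little spread inside each set, whereas Usp18, Iigp1 and Ifit1 are lower in siRNA-140 replicate 3 than in the siRNA-96 arrays inside the Vnn1-low set.

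Many of the genes lower in the Vnn1-high arrays, and therefore higher in the Vnn1-low arrays, were interferon-induced. The 5 interferon lists held 94 measured genes. Of these 41 were separated and lower in the Vnn1-high arrays and 0 were separated and higher, with a median difference of -0.80 over the 94, against 1.04% lower and a median of 0.03 over all genes. Ignoring size, 59 lay lower without overlap and 2 (Irf5 and Trim25) higher. The lists were written with earlier results of these data known, and the arrays were split by their profile, so these counts describe the split and do not test it.

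Among the interferon-induced GTPases 10 of 12 measured genes were separated, all lower, with a median difference of -1.69. The immunity-related and guanylate-binding members of this list attack the vacuoles of intracellular pathogens. Iigp1, an immunity-related GTPase, was 4.16, 3.15 and 3.78 against 6.93, 8.56 and 9.28, a difference of -4.56 (-6.13 to -2.77). The sets did not overlap, but the 3 Vnn1-low arrays themselves spanned 2.35. Gbp3, a guanylate-binding protein, was 3.48, 3.38 and 2.97 against 5.14, 6.54 and 7.25 (difference -3.03). Irgm2 and Igtp, both of the immunity-related family, differed by -3.01 and -2.95. Irgm1, Ifi47, Gbp2, Gbp6, Gbp7 and Mx2 were the other separated members. Mx1 was 2.38, 2.37 and 2.61 against 2.53, 3.75 and 3.74, so that siRNA-140 replicate 3 lay among the Vnn1-high arrays, and Gbp8 was dim in all arrays.

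Of the Ifit and oligoadenylate synthetase genes, which bind foreign RNA or activate RNase L, 5 of 11 were separated, all lower (median -0.95). Oasl2 was 2.97, 3.22 and 3.31 against 6.18, 7.48 and 8.19 (difference -4.12). Ifit1 was 5.10, 5.58 and 5.20 against 7.90, 9.0 and 9.71 (difference -3.58), and Ifit3 differed by -3.33 (-4.74 to -1.87). Oas1a (-2.18) and Oas1c (-1.38) completed the separated members, for which by definition all Vnn1-low arrays exceeded all Vnn1-high arrays. Ifit2 differed by -0.95, Oas2 by -0.77 and Oas3 by -0.24, under the 2-fold limit.

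In the pathway that raises these genes, 7 of 25 sensor and signalling genes were separated, all lower (median -0.20). They were the RNA sensors Ddx58 (RIG-I, -1.83), Ifih1 (MDA5, -1.06), Dhx58 (LGP2, -1.98) and Tlr3 (-1.17), and the transcription factors Irf7 (-2.30), Irf9 (-1.80) and Stat2 (-1.44). Irf9 was 6.19, 6.36 and 6.12 against 7.96, 7.98 and 8.14, with the arrays of each set close together. Of the receptor and kinase genes that carry the signal, Tyk2 was lower without overlap by a small difference of -0.11 (-0.16 to -0.04), while the others named here overlapped between the sets: Ifnar1 differed by 0.08 (-0.17 to 0.48), Ifngr2 by 0.01 (-0.35 to 0.33) and Jak1 by 0.08 (-0.07 to 0.30). The adaptor Mavs (0.05) and the factor Irf3 (-0.03) also overlapped. Irf1 was lower without overlap, by -0.50. The transcript of interferon beta itself, Ifnb1, was near the array medians in all 6 arrays, from 3.65 to 4.37, and overlapped between the sets.

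Usp18, the protease that removes the ubiquitin-like ISG15 from proteins and limits signalling at the interferon receptor, was 3.85, 4.67 and 4.65 against 8.01, 8.92 and 9.30, a difference of -4.35 (-5.45 to -3.34). It was 1 of 5 separated genes among 14 of ISG15 conjugation and interferon-linked TRIM proteins, all lower. The others were the ISG15-conjugating enzyme Ube2l6 (-1.02) and the ubiquitin ligases Trim12c, Trim21 and Trim30a (-1.12, -1.55 and -2.14). Among other effectors 14 of 32 were separated, all lower, with a median of -0.85. Rtp4, a chaperone induced by interferon, was 5.85, 6.33 and 6.36 against 9.03, 9.47 and 9.86 (difference -3.27). Bst2 (tetherin, which holds budding viruses at the cell surface) differed by -2.56, Rsad2 (viperin) by -2.30 and Xaf1, an apoptosis factor, by -2.68. Ifitm3, which blocks viral entry, was abundant in both sets and differed by -0.82. For antigen presentation, 0 of 18 class I and processing genes were separated in either direction (median -0.31), near the 1.59% of all genes. Ignoring size, 7 lay lower without overlap, against 12.3% of all genes, among them Tapbp (tapasin, -0.89) and B2m (-0.49).

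The promoters of interferon genes are shown because the interferon-stimulated response element could be read in them. It was searched on both strands as GAAA, any 2 bases and GAAA again, with overlapping matches counted, in RefSeq promoters of build GRCm38.p6 running from 250 bases before to 50 after the start of each gene. Of the 32 separated interferon-list genes with a promoter in the table, 20 (62.5%) held it, and of the 44 interferon-list genes that were not separated 16 (36.4%) did. It was present in 6 of 103 other lower genes (5.83%), in 1 of 72 higher genes (1.39%) and in 523 of all 14368 genes with a promoter (3.64%). The other lower genes are those in no interferon list, and the 6 include Cxcl10, which interferon induces, and the guanylate-binding gene Gbp2b. A match describes the letters and not binding. The promoters of Ifit1 (chr19:34640639-34640938, plus strand), Ifit3 (chr19:34583279-34583578, plus), Gbp3 (chr3:142559794-142560093, plus) and Igtp (chr11:58199306-58199605, plus) follow, 5′ to 3′, with the matches in capitals.
Ifit1: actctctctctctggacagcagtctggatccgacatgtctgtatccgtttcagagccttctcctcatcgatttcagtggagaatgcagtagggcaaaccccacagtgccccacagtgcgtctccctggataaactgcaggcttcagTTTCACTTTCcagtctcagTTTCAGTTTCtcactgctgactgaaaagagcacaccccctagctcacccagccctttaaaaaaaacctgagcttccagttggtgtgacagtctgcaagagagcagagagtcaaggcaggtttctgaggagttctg
Ifit3: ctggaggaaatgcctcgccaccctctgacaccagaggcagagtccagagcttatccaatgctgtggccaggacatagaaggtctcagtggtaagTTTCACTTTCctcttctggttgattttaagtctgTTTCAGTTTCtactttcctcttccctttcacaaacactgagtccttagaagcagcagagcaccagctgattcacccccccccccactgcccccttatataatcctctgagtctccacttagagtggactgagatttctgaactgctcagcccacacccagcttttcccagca
Gbp3: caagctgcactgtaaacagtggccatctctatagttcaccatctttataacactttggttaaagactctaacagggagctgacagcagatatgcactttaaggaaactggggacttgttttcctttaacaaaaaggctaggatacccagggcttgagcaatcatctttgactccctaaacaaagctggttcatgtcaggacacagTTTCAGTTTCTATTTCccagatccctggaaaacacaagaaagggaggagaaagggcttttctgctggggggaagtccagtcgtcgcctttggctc
Igtp: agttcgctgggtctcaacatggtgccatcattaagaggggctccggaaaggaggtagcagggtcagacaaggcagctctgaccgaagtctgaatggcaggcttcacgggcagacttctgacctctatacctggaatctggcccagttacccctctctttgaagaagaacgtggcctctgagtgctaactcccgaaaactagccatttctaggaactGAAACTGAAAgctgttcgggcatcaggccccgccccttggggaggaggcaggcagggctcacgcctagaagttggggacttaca
The matches of Ifit1 begin 104 and 85 bases before the start, those of Ifit3 156 and 122, those of Gbp3 45 and 39 (overlapping) and that of Igtp 34. On the plus strand the element of Ifit1, Ifit3 and Gbp3 reads as its reverse complement.

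The interferon genes differed from the other separated genes in how they varied inside the Vnn1-low set. The 41 separated interferon genes spanned a median of 1.08 among the 3 Vnn1-low arrays, against 0.20 for the 148 other lower genes, 0.23 for the 101 higher genes and 0.19 for all genes. The 148 are defined only by absence from the interferon lists. They include Cxcl10, which interferon induces and which spanned 1.70 there. The lowest of the 3 was siRNA-140 replicate 3 for 39 of the 41, the exceptions being Oas1c and Trim12c. It was the lowest for 44 of the 148 other lower genes, 19 of the 101 higher genes and 27.3% of all genes. The median deviation of the interferon genes from the mean of the set was -0.59 for siRNA-140 replicate 3, and 0.13 and 0.42 for siRNA-96 replicates 2 and 3. For the other lower genes the same deviations were 0.01, 0.04 and -0.06. Among the Vnn1-high arrays the interferon genes deviated by -0.03, 0.14 and -0.01. The Vnn1-low set held 1 siRNA-140 array, so this order has no replicate check for siRNA-140 and was not tested.

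**Figure D3:**
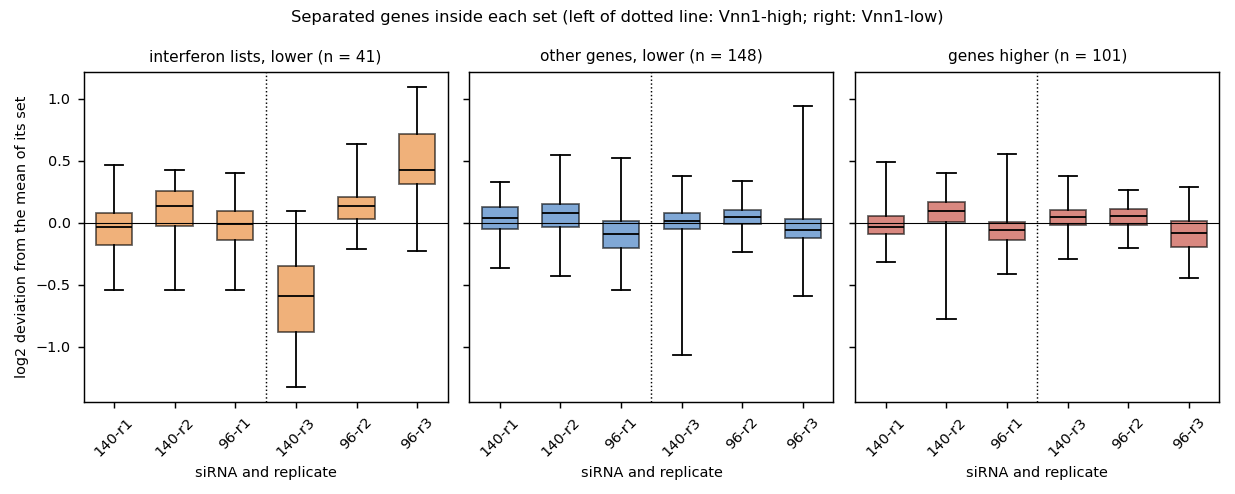
Deviation of separated genes from the mean of their own set (log2, vertical axis) in each siRNA array (horizontal axis), for interferon-list genes (left, 41), other lower genes (middle, 148) and higher genes (right, 101). Boxes span the quartiles with the median as a line, and whiskers reach the lowest and highest gene. In the left panel siRNA-140 replicate 3 lies at a median of -0.59 and siRNA-96 replicate 3 at 0.42, while the boxes of the other panels stay near 0.

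Outside the interferon lists, the genes lower in the Vnn1-high arrays were led by Postn. It was 6.61, 6.17 and 6.23 against 10.01, 10.06 and 10.16, a difference of -3.74 (-3.99 to -3.40). In contrast to Iigp1 and Usp18 it spanned 0.15 among the Vnn1-low arrays. Nrep, a small protein of regenerating neurons, was 4.11, 3.90 and 3.72 against 6.78, 6.93 and 6.92 (difference -2.97). Wfdc18, a secreted whey acidic protein family member, was 5.31, 5.61 and 4.76 against 8.06, 7.92 and 8.01 (difference -2.77). The matricellular and elastic fibre list had 4 separated members of 31, all lower, against 1.04% lower over all genes. They were Postn, Ccn3 (-1.32), the fibrillin Fbn2 (-1.20) and Eln (elastin, -1.05). Of 30 collagen genes 1 was separated and lower (3.33%, against 1.04% of all genes). It was Col3a1, at 11.40, 11.43 and 11.12 against 12.52, 12.54 and 12.53, while Col1a1 (-0.22) and Col1a2 (-0.24) differed little. Further lower genes in no interferon list, named after their values were seen, were the anion exchanger Slc26a7 (-2.70), Ldb3 (-2.08), a Z-disc protein of muscle, Otor (-2.06), Islr (-2.03) and the amine oxidase Aoc3 (-1.93).

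Tgfb2, the ligand, was 5.75, 5.61 and 5.12 against 7.68, 7.71 and 7.40 (difference -2.10), and Itgb8, an integrin subunit that releases active TGF-beta from its latent complex, differed by -2.27. Smad6, an inhibitor of BMP signalling, differed by -1.26. These 2 TGF-beta and BMP genes, Tgfb2 and Smad6, were the separated members of 37, both lower, against 1.04% lower over all genes. The growth factor Igf1 was 4.0, 4.58 and 4.51 against 6.31, 6.65 and 6.99 (difference -2.29). Its binding protein Igfbp4 went the other way, at 7.99, 7.86 and 7.44 against 5.59, 5.66 and 5.53, as did the scavenging receptor Igf2r (1.08). Both Igf1 and Igfbp4 were separated, and so by definition did not overlap between the sets. Igfbp4's 6 probe sets all lay higher in the Vnn1-high arrays, by 0.52 to 3.06, and those of Igf1 all lower, by -2.29 to -0.88. In the Wnt pathway 5 of 39 genes were separated, all lower, against 1.04% lower over all genes. They were the receptors Fzd5 and Ror1 (-1.06 and -1.52), the secreted antagonists Sfrp1 and Sfrp2 (-1.05 for each) and Rspo3 (-1.58), a secreted enhancer of Wnt signalling. Fzd5, Ror1, Sfrp1 and Rspo3 each had a dimmer probe set that overlapped between the sets. Of 19 Notch pathway genes 0 were separated, near the 1.59% of all genes, and 7 lay lower without overlap at any size, against 12.3% of all genes.

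Of 24 smooth muscle and contractile genes 3 were separated, all lower, against 1.04% lower over all genes. At any size 12 lay lower without overlap (12.3% of all genes) and 0 higher (16.6% of all genes), with a median difference of -0.26. Myl9, a regulatory myosin light chain, was 3.05, 3.15 and 3.41 against 4.96, 5.12 and 5.03 (difference -1.83). Actg2 (smooth muscle gamma actin) differed by -1.60 and Cald1 (caldesmon) by -1.01. Acta2, the alpha actin of smooth muscle and myofibroblasts, was 12.04, 12.07 and 11.94 against 12.93, 12.94 and 12.90, just under the 2-fold limit. The CArG box, the element that serum response factor binds, was searched by its consensus on both strands. It was found in 4 of 19 promoters of this list (21.1%), in 5 of 135 separated lower genes (3.70%), in 2 of 72 separated higher genes (2.78%) and in 1.59% of all. Among the 3 separated genes of this list only Myl9 had a match, and the other matches of the list lay in genes that were not separated. The promoter of Myl9 (chr2:156775214-156775513, plus strand) is shown with its match in capitals, which begins 161 bases before the start.
Myl9: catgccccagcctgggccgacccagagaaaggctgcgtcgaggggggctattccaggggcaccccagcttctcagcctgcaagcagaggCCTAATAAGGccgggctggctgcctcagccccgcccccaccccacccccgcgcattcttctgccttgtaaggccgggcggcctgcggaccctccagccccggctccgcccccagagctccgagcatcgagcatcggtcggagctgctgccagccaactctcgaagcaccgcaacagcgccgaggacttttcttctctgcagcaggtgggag

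A list of epithelial genes held some of the higher genes. Of 36 genes in the epithelial junction and keratin list 6 were separated, all higher, against 0.555% higher over all genes. They were Dynap, Mal, Slurp1, Itgb4, Krt14 and the desmosomal plakophilin Pkp1. Dynap, Mal and Slurp1 are neither junction proteins nor keratins. The list was written with earlier results of these data known, so its count describes the split and does not test it. Krt14, a basal keratin, was 3.69, 4.41 and 3.93 against 2.69, 2.73 and 2.39 (difference 1.41). Its Vnn1-high mean of 4.01 was near the array medians, where the signal is close to background. The dimmer Krt14 probe sets differed by 0.64 without overlap and by 0.19 with overlap. Itgb4 was 7.34, 7.43 and 7.13 against 4.95, 5.36 and 5.42, and its partner in hemidesmosomes, Itga6, was also higher, by 1.04. The defining epithelial markers did not follow: Epcam overlapped between the sets (-0.35 to 0.24), Krt18 differed by 0.11 and Krt19 by 0.01, and Cdh1 (E-cadherin) was dim throughout, at 2.58 to 3.53. The mean level of the whole list was 4.28 to 4.34 in the Vnn1-high arrays and 3.85 to 3.97 in the Vnn1-low arrays, and 23 of its 36 members lay under 5 in every siRNA array. Of 10 mesothelial genes Msln alone was separated and higher (0.555% of all genes), and Wt1 stayed between 2.05 and 2.15. In a bulk sample fewer cells of a kind and less RNA per cell cannot be told apart.

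**Figure D4:**
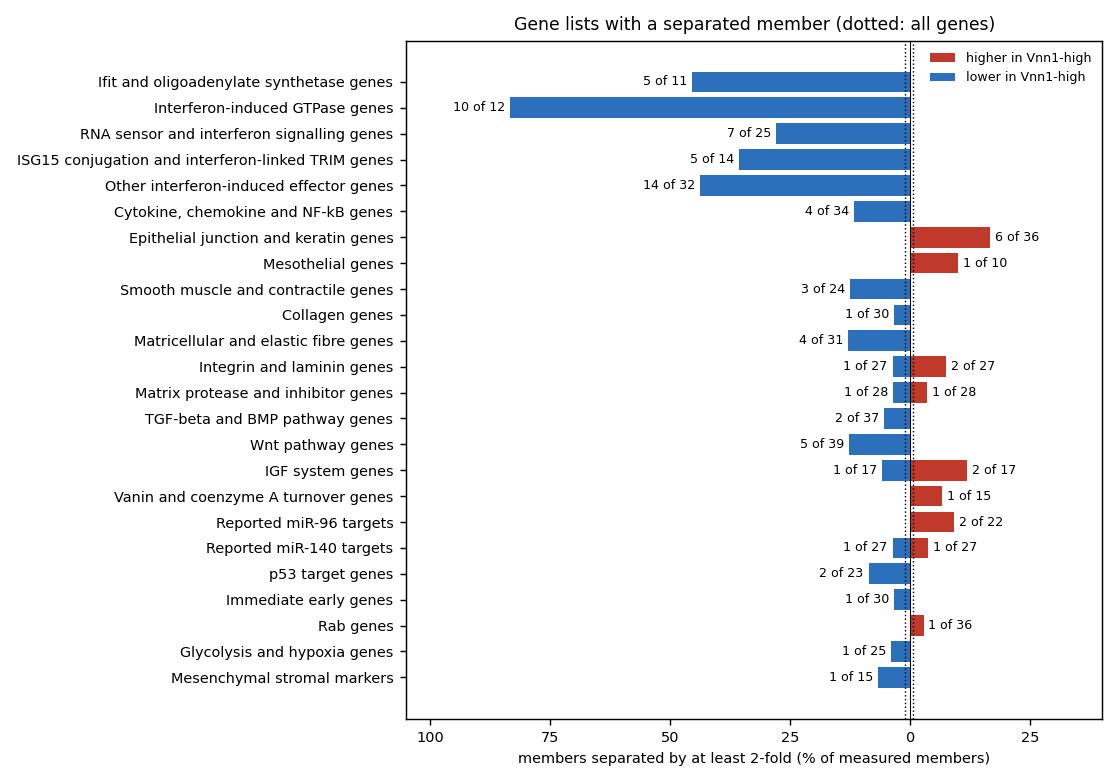
Share of measured members separated by at least 2-fold (percent, horizontal axis; left, lower in the Vnn1-high arrays, right, higher) for each gene list with a separated member, with counts beside the bars. Dotted lines mark the share over all genes, 1.04% lower and 0.555% higher. The interferon lists reach from 28.0% (7 of 25 sensor and signalling genes) to 83.3% (10 of 12 GTPases).

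The genes on which the study's siRNAs might act were compared in the same way. Cxcl12, a chemokine reported as a target of miR-140, was 9.11, 9.11 and 9.01 against 10.39, 10.40 and 10.30 (difference -1.29). Inside each set the siRNA-140 and siRNA-96 arrays lay within 0.10 of each other. A dimmer Cxcl12 probe set overlapped (0.09), and another differed by -1.71. Of 27 reported miR-140 targets Cxcl12 was separated and lower and Mmd, a membrane receptor-like protein, higher (1.12), with a median of -0.05 over the list. Over all genes 1.59% were separated in either direction. Hdac4, a further reported target, differed by -0.40, and Wwp2, which hosts the miR-140 gene, by -0.29. Dimmer Wwp2 probe sets went both ways without overlap, by -0.27 and by 0.22, and the rest overlapped. Of 22 reported miR-96 targets 2 were separated, both higher, against 0.555% higher over all genes. The transcription factor Mitf was 5.59, 5.52 and 5.34 against 4.03, 3.81 and 3.46, and the water channel Aqp5 was 9.51, 9.62 and 9.77 against 8.11, 7.98 and 7.96. The definition of separated places the siRNA-96 array of the Vnn1-high set with its siRNA-140 arrays, so that order is no test of siRNA-96. A second Mitf probe set was dim and overlapped.

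Chemokines and signalling regulators added 3 more separated genes to Cxcl12 in a list of 34, all lower, against 1.04% lower over all genes. Ccl5 was 3.93, 4.06 and 4.17 against 5.69, 6.03 and 5.98, and Cxcl10, which interferon induces, was 3.5, 3.08 and 3.45 against 4.17, 5.52 and 5.87. Tnfaip3 (A20), an inhibitor of NF-kB, differed by -1.39. Cxcl10 showed the same order inside the Vnn1-low set as the interferon lists, and Ccl5 spanned 0.34 there. Few genes were separated in other lists, against 1.59% of all genes in either direction. Of 23 p53 targets 2 were lower, Trp53inp1 (-1.36) and Btg2 (-1.12). Btg2 was also the only separated gene among 30 immediate early genes. Of 25 glycolysis and hypoxia genes Bnip3 alone was lower (-1.22), and of 36 Rab genes Rab32 alone was higher (1.12). Of 28 matrix protease and inhibitor genes the protease Adam8 was higher (1.30) and the plasminogen activator Plat lower (-1.10). Bnip3 was 7.51, 7.47 and 7.45 against 8.71, 8.71 and 8.68.

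Separated genes numbered 0 among 39 of DNA replication, 39 of mitosis, 26 of cholesterol and fatty acid synthesis, 28 of the unfolded protein and stress response, 20 of ribosomal proteins, 26 of oxidative phosphorylation and 16 of the microRNA machinery, counts near the 1.59% of all genes. Ignoring size, 10 of the 26 cholesterol and fatty acid genes lay higher without overlap (16.6% of all genes) and 9 of the 39 mitosis genes lower (12.3% of all genes). Their median differences ran from -0.08 (mitosis) to 0.15 (cholesterol and fatty acid synthesis). The 33 Hox genes and 27 cartilage, bone and fat genes also held 0, with medians of 0.00 and -0.03. Over chromosomes the median difference ran from 0.01 to 0.05. Of the separated genes, 85 higher and 123 lower ones were in no list.

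Stromal markers of the labelled line were high in both sets, with Vim at 13.38 to 13.59, Col1a1 at 13.00 to 13.32 and 11 of 15 markers above 6 in all 6 arrays, though Thy1 was dim, at 3.09 to 3.19. Leukocyte and endothelial lists had 0 separated genes of 14 and 11, near the 1.59% of all genes. Ptprc was at 2.01 to 2.42 and Pecam1 at 2.38 to 2.74, near the lowest signals on the arrays. Xist was 8.49 to 8.71 and the Y-linked Eif2s3y 1.83 to 1.96 in all 6 arrays. The array medians were 3.95 to 4.02. Probe sets for 18S ribosomal RNA read 5.62, 6.73 and 10.5 in the Vnn1-high arrays and 5.68, 5.4 and 7.86 in the Vnn1-low arrays, and the hybridization spikes were also brightest in siRNA-96 replicates 1 and 3, 1 array of each set. Without these 2 arrays 111 genes were higher and 190 lower by the same definition. Bacterial spikes, actin and Gapdh controls overlapped between the sets.

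**Figure D5:**
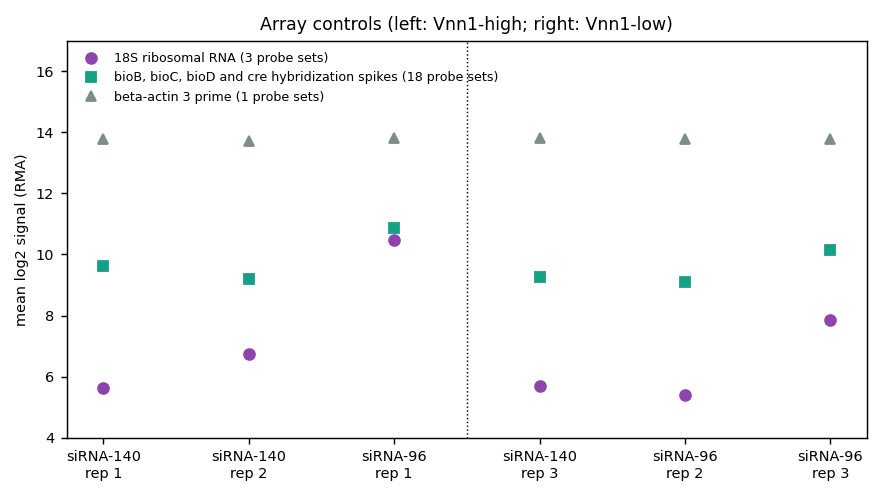
Mean log2 signal (vertical axis) of the array controls in each siRNA array (horizontal axis), with Vnn1-high arrays left of the dotted line. Circles are 18S ribosomal RNA, squares the bacterial hybridization spikes and triangles the 3 prime beta-actin control. The 18S signal peaks at 10.5 and 7.86 in replicates 1 and 3 of siRNA-96, on opposite sides of the line.

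The labelled comparison takes the same arrays by their siRNA labels. For siRNA-140 against siRNA-96, limma with Benjamini-Hochberg adjustment called 0 of 45037 probe sets (0%), with 2292 at an unadjusted p under 0.05, and 0 genes were separated by 2-fold in either direction. Of the 290 genes separated between the Vnn1 sets, 0 were called and 26 had an unadjusted p under 0.05. Because the split crosses the labels, the difference that picked these genes counts as spread within the labelled groups. Few calls among them therefore follow from the choice. Vnn1 differed by 1.81 (95% interval -0.84 to 4.46, adjusted p = 0.88 by limma) and Iigp1 by -2.46 (-4.89 to -0.02, adjusted p = 0.88), siRNA-140 minus siRNA-96. Each labelled group held arrays of both Vnn1 sets. The call of 0 changed when siRNA-96 replicate 1 was left out, to 36 probe sets, and when siRNA-96 replicate 2 was left out, to 25, all lower with siRNA-140. With the 2 Vnn1 sets as a block limma called 0, with 1954 at an unadjusted p under 0.05.

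On the anti-miR arrays, which the split did not use, few of these genes spanned 1 or more. Between anti-miR-140 and anti-miR-449 limma called 0 of 45037 probe sets (1022 at an unadjusted p under 0.05). That fit takes its spread from all 12 arrays, siRNA arrays included. Fitted to the 6 anti-miR arrays alone, limma also called 0, with 2148 at an unadjusted p under 0.05. Between these groups the 290 separated genes differed by a median of 0.06 in size, the greatest being Ifit1 at 0.58. A contrast of labels cannot show a division that crosses them, so ranges over the arrays follow. Across the 6 anti-miR arrays the range reached 1 for 2 of the 41 interferon genes, Ifit1 and Usp18, for 0 of the 148 other lower genes and for 0 of the 101 higher genes, against 0.0824% of all genes. The Vnn1 probe set that defined the sets read 4.55 to 5.61 there, with 1 array above the threshold of 5.5. No source used here says whether both experiments were normalized together, and their array medians differ, so levels are set side by side with that limit. Postn was 7.11 to 7.31 on the anti-miR arrays, between the sets, and Col3a1 was 12.28 to 12.40, closer to the Vnn1-low arrays. All anti-miR arrays lay between the 2 sets for 7 of the 41 interferon genes, 62 of the 148 other lower genes and 24 of the 101 higher genes. Over all 18193 genes this held for 186. Such a position needs a gap between the sets, which separated genes have by definition and most genes lack. Usp18 was 3.13 to 4.45 and Iigp1 3.06 to 3.76, within or below the Vnn1-high levels.

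The other probe sets of the separated genes bear on single genes. Of the 290 genes 168 had 294 further probe sets, of which 198 differed in the same direction without overlap, 105 of these by at least 2-fold. For 92 the sets overlapped, and 4 differed in the opposite direction, 1 each for Bbip1, Cavin1, Ang4 and Ppt1. Among named genes, the dimmer probe set of Rtp4 differed by -0.42 against -3.27 at the brighter one, and that of Sgms2 by 0.46 against 1.97. Other named genes had a dimmer probe set that overlapped between the sets. Among them were Fzd5 (-0.06), Ror1 (0.18), Rspo3 (0.10), Sfrp1 (-0.22), Plat (-0.06), Cald1 (0.19), Dhx58 (0.08), Trim12c (-0.02) and Mmd (0.23). Of these, Ror1, Sfrp1, Cald1, Dhx58 and Mmd also had a dimmer probe set that differed in the same direction without overlap. Dim genes limit the size of the difference: the Vnn1-low mean of 8 higher genes and the Vnn1-high mean of 38 lower genes lay under the array median, where the signal is close to background. At the 2-fold limit, Loxl4 and Insig2 (1.01 each) lay just inside and Hbegf (0.99) just outside among genes higher in the Vnn1-high arrays. Among lower genes Omd and Ppt1 (-1.0 each) lay just inside and Fbxo2 and Il33 (-0.99 each) just outside.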

How the data were processed

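Total RNA of C3H10T1/2 cells was labelled with biotin and hybridized to Affymetrix mouse arrays. The deposited values are log2 expression per probe set, made by the authors with the RMA method, as the submitters' processing notes name it. This method subtracts background, quantile-normalizes and summarizes probes, so it equalizes array distributions and compresses dim differences. Its version and the probe definitions are not given in the sources used here. Of 45101 probe sets, 64 array controls were left out. Of the 45037 others, 34945 had 1 gene symbol in GEO's platform annotation, 932 had several and 9160 had none. Each of the 18193 genes was represented by its probe set of highest mean over the 12 arrays. The 2 Vnn1 sets, taken from the signal, were compared by array values alone. Labelled contrasts were fitted with limma 3.58.1 in R 4.3.3 over all 12 arrays, with Benjamini-Hochberg adjustment over 45037 probe sets. Scripts were tested on simulated data. Same-numbered replicates were checked for pairing and treated as unpaired. The number of arrays, 3 a group, limits the precision.

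The genes named are the 12 with the greatest difference each way, passing over predicted genes, up to 4 members of each list by difference, the rule's markers, Cxcl12, Wwp2 and sex chromosome genes, and any other where stated. Further list members were named after their values were seen, and 1 gene that the rule names is not reported here. The split, the gene lists and the tests were chosen with earlier results of these data known. Alternatives were a gene's mean probe set, all probe sets, other normalizations, level filters, other fold limits and leaving out each array.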

Additional observations from a re-analysis of the deposited data

How the results depend on the processing

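Main counts were 101 genes higher and 189 lower in the Vnn1-high arrays, 41 of the lower ones in the interferon lists. With genes of a mean of at least 6, 109 were lower, 14 of them interferon genes. At or above the median level 21 interferon genes were separated. All probe sets gave 189 higher and 304 lower, and the mean of a gene's probe sets gave 124 lower. Limits of 1.5-fold and 4-fold gave 438 and 8 higher and 585 and 31 lower, with 20 interferon genes at 4-fold. Leaving out each array gave 87 to 116 higher, 172 to 216 lower and 38 to 46 interferon genes. Without the 2 arrays of highest 18S signal, chosen after seeing the data, counts were 111, 190 and 38. The alternatives were run for 90 named genes: the leading genes, the separated list members, Cxcl12 and Wwp2. None of these changed direction, and other genes named in the text were not run. List medians changed sign under some alternatives where they lay within 0.05 of 0: DNA replication, ribosomal protein, Hox, immediate early, lineage, matrix protease, sex chromosome and miR-140 target genes. Of the differences of the 90 genes under these settings 867 stayed within the spread inside the sets and 33 moved beyond it. For siRNA-140 against siRNA-96 limma called 0 probe sets, and 0 to 36 when each array was left out. The replicate block called 0 in both labelled contrasts, also with only 6 arrays. Deviations of same-numbered siRNA arrays correlated at 0.41, -0.24 and 0.44, and of anti-miR arrays at -0.01, 0.10 and -0.03. The anti-miR values gave no sign of pairing. Both siRNA arrays of replicate 1 are Vnn1-high, both of replicate 3 are Vnn1-low and those of replicate 2 are divided. The siRNA correlations therefore cannot tell pairing from the split. The anti-miR contrast called 0 under every alternative run. Dim probe sets and 3 arrays a set limit what can be resolved.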
